A study of Bos taurus with 90 samples.

Results

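The miR-17-92 cluster and the clusters related to it were followed across 5 tissues and 3 forage diets of dairy cows, with the question of whether the high level of miR-92a in jejunum on corn stover was shared by the miRNAs made from the same precursors. The members were the 10 miRNAs listed by name as miR-17-5p, miR-18a, miR-19a, miR-19b, miR-20a, miR-92a, miR-106a, miR-363, miR-25 and miR-93, out of 388 miRNAs listed in any tissue, and all 10 were listed in all 5 tissues. The animals were 18 mid-lactation Chinese Holstein cows, in 3 groups of 6 whose diet was based on rice straw, alfalfa hay or corn stover. Rumen epithelium, duodenum epithelium, jejunum epithelium, liver and mammary gland gave 18 samples each, 6 per diet, or 90 in all. Every cow ate 1 of the 3 forage diets, so no group without a forage diet is available as a control.

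miR-17-92 is a polycistron, a single long transcript from which several miRNA hairpins are cut, and it is known for its induction by the MYC family and for its activity in dividing cells. The miR-106a-363 and miR-106b-25 clusters are its paralogues, the latter lying within an intron of the DNA replication gene MCM7 in mammals. By the seed that pairs with target messages, miR-17-5p, miR-20a, miR-106a and miR-93 form a family known to repress cell cycle inhibitors. miR-19a and miR-19b share a different seed, and miR-92a, miR-363 and miR-25 share another. miR-18a has a seed of its own that is close to that of miR-17-5p.

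In the bovine RefSeq gene table (assembly ARS-UCD2.0), MIR17, MIR18A, MIR19A, MIR20A, MIR19B and MIR92A-1 were 6 neighbouring miRNA genes. MIR106A, MIR18B, MIR20B, MIR19B-2, MIR92A-2 and MIR363 were another 6, and MIR106B, MIR93 and MIR25 were 3. Mature miR-92a and miR-19b can each come from 2 genes, in the first and the second cluster, and the values do not separate them. The alignment allowed mismatches and several mappings per read, so reads could be shared between miR-17-5p, miR-20a, miR-106a and miR-93, between miR-19a and miR-19b, and between miR-92a and miR-92b, and the separate values are uncertain to that extent.

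All levels are CPM, the reads of a miRNA scaled to the same total of reads mapped to all annotated miRNAs. The mapped reads recovered from the CPM steps ranged from 937556 to 15621501 per sample, and from 3987988 to 10383400 in jejunum, where 3 reads were worth at most 0.752 CPM. In mammary gland 4 samples held under 3000000 mapped reads, rice straw replicates 1, 4 and 5 and alfalfa hay replicate 1, and they stood apart in several members (given with the mammary gland below). Of the defining markers, miR-122 of hepatocytes was at 8671 CPM or more in every liver sample and at most 48.5 CPM in mammary gland, and miR-205 of stratified epithelium was at 23016 CPM or more in every rumen sample and reached 1525 CPM in 1 liver sample on alfalfa hay. Summed with miR-31 of the same cell type, it came to 879 to 9101 CPM in mammary gland and 391 to 2399 CPM in liver. Intestinal miR-192 was at 119672 CPM or more in every duodenum and jejunum sample. Such a level was not shown to be particular to gut. The 8 intestinal epithelium miRNAs, miR-192 among them, summed to 122630 to 196506 CPM in liver, which overlapped the 151628 to 316033 CPM in jejunum. Fewer cells of a type and less RNA per cell cannot be told apart in these bulk samples.

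In jejunum the 6 corn stover samples lay between 10300 and 14544 CPM of miR-92a, with a median of 11571. The lowest, median and highest rice straw samples were at 3098, 4388 and 5327 CPM, and those on alfalfa hay at 3560, 4513 and 4820 CPM. The corn stover samples were thus all above both other diets, with no overlap. The log2 difference of corn stover from the mean of the other diets was 1.49 ± 0.12 (SE, 18 samples), with a rank of 3 among 337 miRNAs, after miR-196a and miR-423-3p. This difference set the question and is given with no test.

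**Figure D1:**
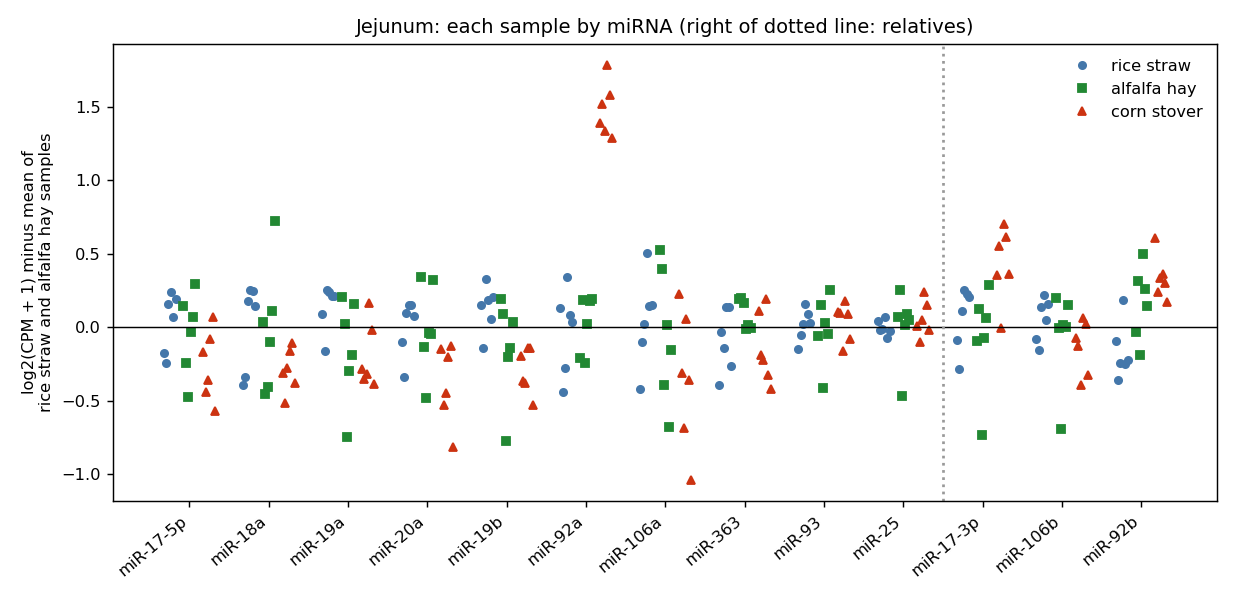
Each point is 1 of the 18 jejunum samples, plotted for each miRNA as log2(CPM + 1) minus the mean of the 12 rice straw and alfalfa hay samples, with the 10 members left of the dotted line and 3 relatives right of it. For miR-92a the 6 corn stover samples lie above all others, whereas for each of the other 9 members the corn stover samples overlap the other diets.

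The partners of miR-92a did not share its rise as the CPM were deposited. None of the 9 other members was called higher on corn stover and 1 of 9 was called lower, where 12.5% of all miRNAs tested were called higher and 22.8% lower (limma on log2(CPM + 1), adjusted p over 337 miRNAs). No partner had all corn stover samples above or all below the other samples, which 2.08% and 3.86% of all miRNAs had. The median log2 difference of the 9 partners was -0.26, and that of all miRNAs was -0.19.

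The nearest partners are the 5 that the miR-17-92 transcript carries upstream of miR-92a. miR-17-5p lay at 225 to 351 CPM on corn stover (median 279), 283 to 396 CPM on rice straw (median 362) and 240 to 411 CPM on alfalfa hay (median 339). The 3 ranges overlapped, and the log2 difference of -0.26 (95% confidence interval -0.52 to -0.00) had an adjusted p of 0.096. miR-20a, of the same seed family, lay at 174 to 281 CPM on corn stover, 243 to 342 CPM on rice straw and 220 to 389 CPM on alfalfa hay.

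Here 2 corn stover samples lay below every other sample and the rest overlapped them, and miR-20a fell by 0.38 on the log2 scale (interval -0.65 to -0.11, adjusted p = 0.032). This call did not hold without corn stover replicate 2 (adjusted p = 0.074), 3 (0.052) or 6 (0.10), nor under TMM scaling (0.15). miR-19b, the most abundant of the 5, was at 578 to 758 CPM on corn stover, 757 to 1051 CPM on rice straw and 488 to 954 CPM on alfalfa hay. Its log2 difference was -0.29 (-0.54 to -0.04, adjusted p = 0.061), with corn stover and rice straw touching at their edges. The differences of miR-18a (-0.29, adjusted p = 0.14) and miR-19a (-0.20, adjusted p = 0.24) also missed the threshold.

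A single alfalfa hay sample, replicate 3, was the lowest of its diet in miR-17-5p, miR-19a, miR-20a and miR-19b, with 488 CPM of miR-19b against 725 or more in the other 5. It also had the fewest mapped reads in jejunum, 3987988. Without it miR-17-5p (log2 difference -0.30, adjusted p = 0.038) and miR-19b (-0.36, adjusted p = 0.0053) were also called lower. In that fit 143 of all 337 miRNAs were called, 41 of them higher and the rest lower. Without rice straw replicate 2 miR-19b was called lower as well (-0.32, adjusted p = 0.050), where 108 of all 337 miRNAs were called, 33 of them higher. Set against rice straw alone, miR-19b was the only partner called, lower by a log2 difference of -0.42 (adjusted p = 0.028). Of all miRNAs 28.8% were called in that comparison, 9.2% higher and 19.6% lower. Against alfalfa hay alone 0 of 9 were called (1 at an unadjusted p under 0.05, as were 136 of all 337 miRNAs). Of all miRNAs 22% were called in that comparison, and 8.01% of all miRNAs were called higher.

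The second gene of miR-92a lies beside miR-363 and in the same cluster as miR-106a. In jejunum miR-363, a seed relative of miR-92a, was at 20.4 to 31.7 CPM on corn stover, 20.7 to 30.5 CPM on rice straw and 27.3 to 31.9 CPM on alfalfa hay. The ranges overlapped and the log2 difference was -0.14 (-0.40 to 0.11, adjusted p = 0.36). miR-106a was low throughout, at 2.37 to 7.11 CPM on corn stover and 3.32 to 8.98 CPM on the other diets, with a log2 difference of -0.35 (adjusted p = 0.17). Neither miR-363 nor miR-106a showed the pattern of miR-92a.

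The products of the miR-106b-25 cluster did not differ by the test on CPM. miR-25 lay at 2942 to 3734 CPM on corn stover, 3003 to 3318 CPM on rice straw and 2281 to 3767 CPM on alfalfa hay, with a log2 difference of 0.06 (-0.14 to 0.25, adjusted p = 0.65). miR-93 had a log2 difference of 0.04 (-0.16 to 0.23, adjusted p = 0.76). Both depended on the scaling. With TMM scaling, which moved the median of all miRNAs from -0.19 to -0.01, miR-25 was called higher by 0.25 (adjusted p = 0.0037) and miR-93 by 0.23 (adjusted p = 0.016), where 21.1% of all miRNAs were called higher. Across all miRNAs TMM turned the split of the calls, from 35.3% higher to 64.5% higher. Relative to the median of all miRNAs, the CPM differences were 1.67 for miR-92a, 0.24 for miR-25, 0.23 for miR-93, 0.05 for miR-363 and between -0.19 and -0.01 for the other 6.

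Of the 8 relatives looked for, 5 were listed, and 2 of these 5 were called higher on corn stover, where 42 of all 337 miRNAs were called higher. miR-17-3p, the other arm of the miR-17 hairpin, lay at 42.3 to 69.5 CPM on corn stover (median 58.7), 34.5 to 50.8 CPM on rice straw and 25.1 to 51.8 CPM on alfalfa hay. Its 5 highest samples were on corn stover and the sixth overlapped the rest, with a log2 difference of 0.43 (0.13 to 0.73, adjusted p = 0.029). miR-92b, which has the seed of miR-92a and comes from a separate gene, lay at 234 to 316 CPM on corn stover, 161 to 235 CPM on rice straw and 181 to 294 CPM on alfalfa hay. It was higher by 0.34 (0.11 to 0.57, adjusted p = 0.025), and the rice straw samples lay nearly all below corn stover while alfalfa hay overlapped it.

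These calls were close to the threshold. miR-17-3p was not called without corn stover replicate 2, 4 or 5 (adjusted p from 0.051 to 0.066), nor miR-92b without corn stover replicate 1 (adjusted p = 0.074). miR-106b (-0.14), miR-18b (-0.24) and miR-20b (-0.30) had log2 differences that did not pass the test.

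Ratios within a sample do not depend on the total of mapped reads. In jejunum miR-92a was 15.2 to 19.2 times miR-19b on corn stover, 3.31 to 5.61 times on rice straw and 3.82 to 7.30 times on alfalfa hay. Against miR-25 of its own seed family, miR-92a stood at 3.26 to 4.11 times on corn stover and at 0.99 to 1.61 times on the other diets. Both ratios have miR-92a above the line, so their separation by diet follows from the levels that set the question and is a description. Between the arms of the miR-17 hairpin, miR-17-5p was 3.93 to 6.16 times miR-17-3p on corn stover, 7.04 to 8.19 times on rice straw and 6.10 to 9.59 times on alfalfa hay, where the lowest alfalfa hay sample overlapped corn stover. By contrast, miR-19b to miR-19a and miR-25 to miR-93 each overlapped between diets, with medians of 4.77 to 5.14 and of 2.66 to 2.85.

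**Figure D2:**
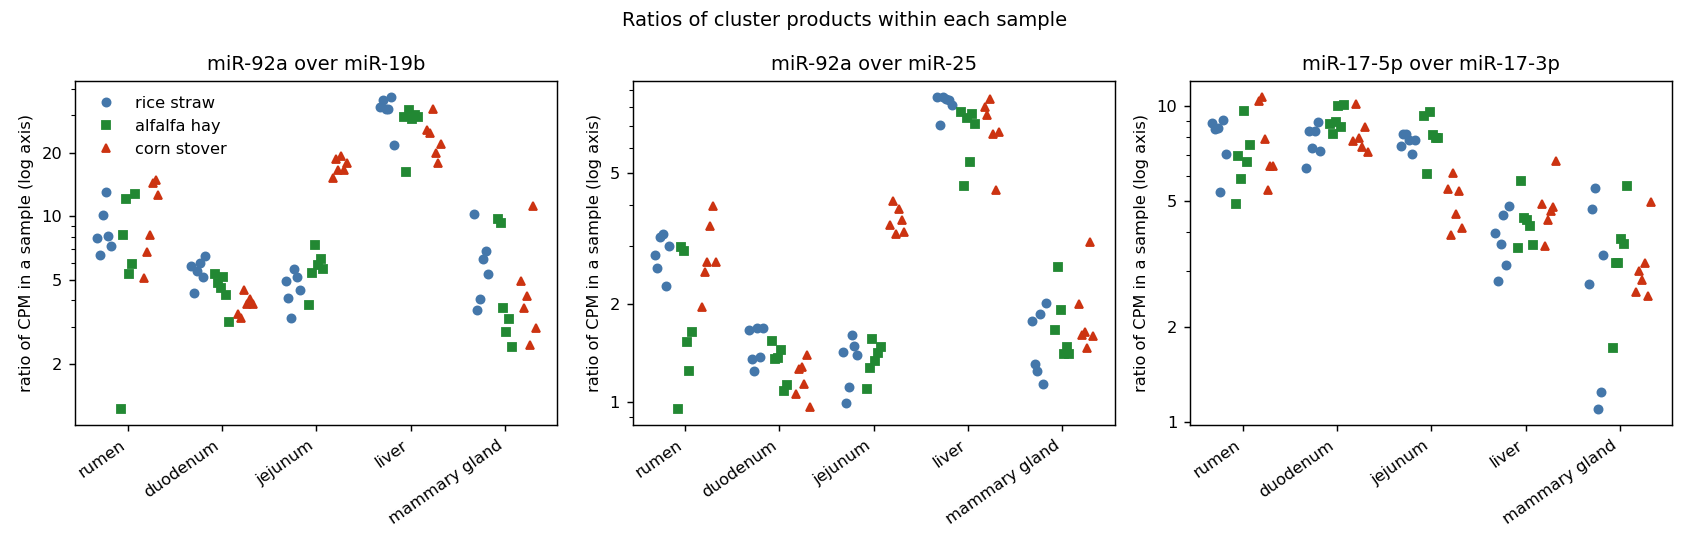
Each point is the ratio of 2 miRNAs within 1 sample, on a log axis, by tissue and diet. In jejunum the 6 corn stover samples stand above the others for miR-92a over miR-19b (15.2 to 19.2) and miR-92a over miR-25, and low for miR-17-5p over miR-17-3p, while liver has the highest ratios of miR-92a.

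miR-92a made up 66.7% ± 1.7 (SD, n = 6) of the members' summed CPM in jejunum on corn stover, 40.3% ± 4.1 on rice straw and 41.8% ± 3.1 on alfalfa hay (SD, n = 6 each). The 10 members together took 1.78% ± 0.20 of all mapped miRNA reads on corn stover, 1.04% ± 0.10 on rice straw and 1.03% ± 0.14 on alfalfa hay. The miR-17 seed family took 0.172% ± 0.018, 0.183% ± 0.016 and 0.180% ± 0.027 in the same order.

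Markers of other cell types were set beside these values, and their part in the result was not tested. Their calls are for corn stover against the other diets, where 119 of all 337 miRNAs were called, 42 of them higher and the rest lower. The 7 of 7 listed immune cell miRNAs summed to 19879 to 32208 CPM on corn stover, 25044 to 35942 CPM on rice straw and 24280 to 37762 CPM on alfalfa hay, and 3 were called lower. The 3 of 3 smooth muscle miRNAs summed to 184729 to 297227 CPM on corn stover and 147319 to 247226 CPM on the other diets, with 1 called in each direction. The 8 of 8 intestinal epithelium miRNAs summed to 164311 to 316033 CPM on corn stover and 151628 to 308047 CPM on the other diets, with 1 called higher. The 3 of 3 red blood cell miRNAs and the 3 of 3 mammary epithelium miRNAs had no call. Of the 3 stratified epithelium miRNAs only miR-31 was listed in jejunum, at 8.13 to 478 CPM on corn stover and 183 to 476 CPM on the other diets, and it was called lower. The hepatocyte marker miR-122 was not listed there.

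In duodenum, the neighbouring gut segment, miR-92a lay at 3197 to 3950 CPM on corn stover, 4145 to 5547 CPM on rice straw and 3126 to 5383 CPM on alfalfa hay. Here all 6 corn stover samples were below the rice straw samples and overlapped alfalfa hay. The log2 difference of corn stover from the other diets was -0.28 (-0.50 to -0.06, adjusted p = 0.53), and that in jejunum exceeded it by 1.77, a value that rests on the known pattern and is given with no test. On corn stover the jejunum samples of miR-92a began at 10300 CPM, while no duodenum sample of any diet passed 5547 CPM.

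Among the partners the difference between jejunum and duodenum was called for miR-19b alone, 1 of 9, where 21.5% of all miRNAs were called and 12.4% as lower. Its corn stover difference was -0.29 in jejunum and 0.10 in duodenum, a difference between them of -0.39 (-0.69 to -0.10, adjusted p = 0.045). That call was at the edge of the threshold, and it was lost without any of corn stover replicates 1, 2, 3, 4 and 6 (adjusted p from 0.056 to 0.13). It was also lost under TMM scaling (-0.28, adjusted p = 0.070), edgeR (adjusted p = 0.057), DESeq2 (0.056) and without the intensity trend (0.055). miR-20a differed by -0.45 (adjusted p = 0.066), miR-363 by -0.47 (adjusted p = 0.096) and miR-19a by -0.35 (adjusted p = 0.12). With a replicate block that kept samples of the same diet and number together, miR-20a was called beside miR-19b, and 30.2% of all miRNAs were called.

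**Figure D3:**
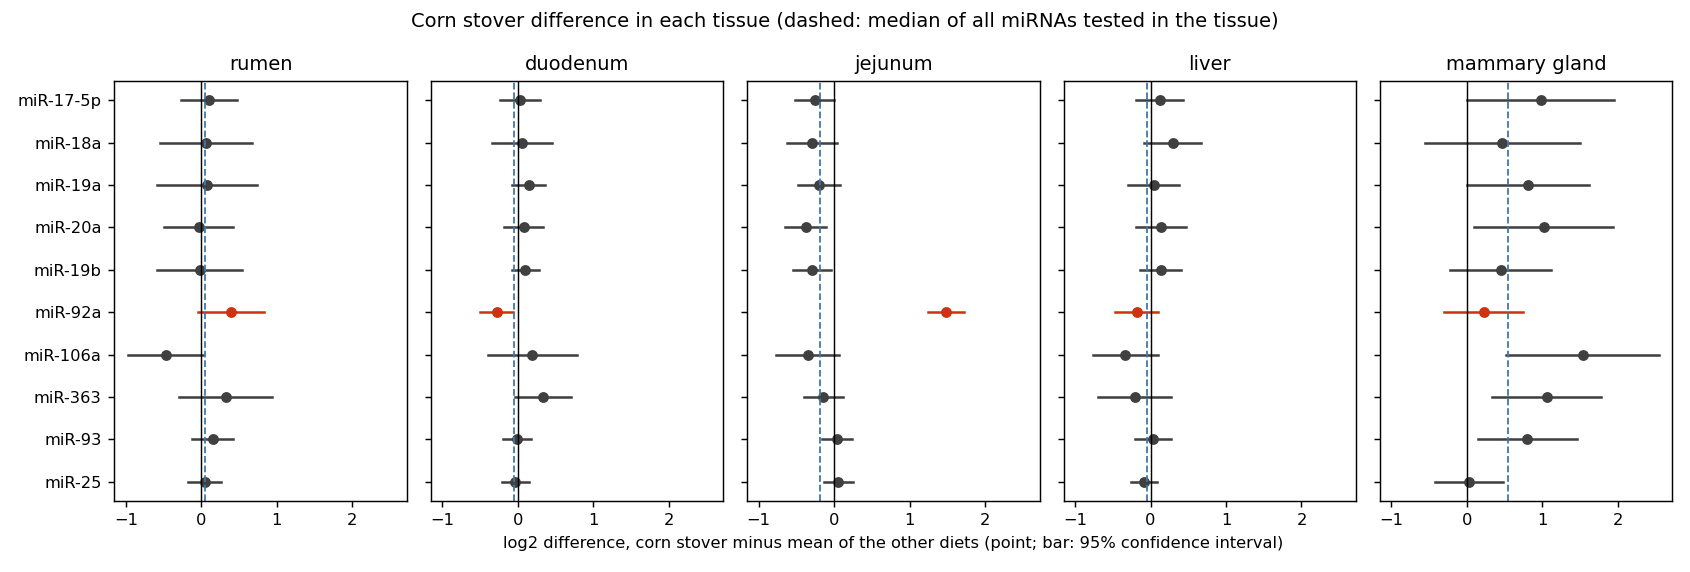
Points give the log2 difference of corn stover from the mean of the other diets for each member in each tissue, with 95% confidence intervals from limma, and the dashed line gives the median of all miRNAs tested in that tissue. miR-92a in jejunum (1.49) stands apart from the other members. There the intervals of miR-25 and miR-93 lie above the dashed line (-0.19), and those of the remaining partners cross it. The intervals are widest in mammary gland.

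Outside jejunum no member was called between corn stover and the other diets. The count was 0 of 10 in rumen, duodenum, liver and mammary gland, and 0% of all miRNAs were called in each of these tissues. At an unadjusted p under 0.05 5 of 10 members passed in mammary gland (112 of all 328 miRNAs), 1 in duodenum (27 of 338), 0 in rumen (18 of 340) and 0 in liver (21 of 330). The test of any difference between the diets called 0 of 10 members in rumen (1.47% of all miRNAs), mammary gland (3.66%), liver and duodenum (0% each), and 0 of the 9 partners in jejunum (23.7%). At an unadjusted p under 0.05 those counts were 4 in rumen (69 of all 340 miRNAs), 3 in mammary gland (99 of 328), 0 in liver (17 of 330), 3 in duodenum (37 of 338) and 2 in jejunum (138 of 337). In liver miR-92a had a log2 difference on corn stover of -0.19 (adjusted p = 0.75), with 8709 to 17512 CPM against 10502 to 19651 CPM on the other diets.

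In rumen the samples that departed were on alfalfa hay. miR-92a there ranged from 4364 to 15360 CPM on alfalfa hay (median 8056), from 11021 to 15998 CPM on rice straw and from 11181 to 18390 CPM on corn stover. The alfalfa hay samples were spread, with 4 of 6 below every sample of the other diets. The log2 difference of alfalfa hay from rice straw was -0.80 (-1.31 to -0.30) for miR-92a with an adjusted p of 0.071. For miR-363 it was -0.96 (adjusted p = 0.092), for miR-17-5p -0.62 (adjusted p = 0.091) and for miR-93 -0.40 (adjusted p = 0.10), so none of the 10 was called, where 2.65% of all miRNAs were.

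In mammary gland the mean of the corn stover group was called higher than that of rice straw for 3 of 10 members. This was near the share of all miRNAs, of which 23.5% were called higher and 1.52% lower, with a median of 0.63. With TMM scaling the share of calls that were higher fell from 93.9% to 44.4%. miR-106a was higher by 1.78 (adjusted p = 0.031), miR-20a by 1.48 (adjusted p = 0.041) and miR-363 by 1.24 (adjusted p = 0.032), all on the log2 scale. The samples of the 2 diets overlapped in each. Rice straw reached 19.6 CPM of miR-106a and 245 CPM of miR-20a, and corn stover lay at 12.1 to 23.5 and 157 to 307 CPM. miR-363 lay at 38.4 to 75.8 CPM on corn stover, 11.1 to 80.0 CPM on rice straw and 18.1 to 41.8 CPM on alfalfa hay, so 5 of the 6 rice straw samples lay below all corn stover samples and replicate 2 lay above them. Among the relatives miR-106b (2.00, adjusted p = 0.014) and miR-17-3p (1.05, adjusted p = 0.041) were called too. miR-92a did not differ by the test, with a log2 difference of 0.14 (adjusted p = 0.77).

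Depth differed along with these levels. The 4 samples under 3000000 mapped reads held 22.9 to 48.0 CPM of miR-17-5p and the other 14 samples 121 to 264 CPM. miR-20a was at 23.6 to 67.8 CPM in the 4 and 126 to 307 CPM in the 14, and miR-93 at 159 to 350 and 449 to 818 CPM. For these 3 members, and for miR-106a, the 4 samples lay below all 14, whereas miR-92a (2712 to 5871 and 2959 to 7961 CPM) and miR-25 overlapped. None of the corn stover samples was among the 4.

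Without the 4 samples, a choice made after the data were seen, the log2 differences from rice straw fell to 0.54 for miR-106a, 0.44 for miR-20a and 0.63 for miR-363, none of them called (adjusted p = 0.28, 0.26 and 0.18). None of the 3 was called under TMM scaling either (adjusted p from 0.094 to 0.30). The 7 immune cell miRNAs summed to 1252 to 2869 CPM in the 4 samples and 3727 to 11133 CPM in the others. The red blood cell miRNAs summed to 3251 to 4241 CPM in the 4 and 1070 to 2938 CPM in the others. The 8 intestinal epithelium miRNAs summed to 12503 to 34769 CPM in the 4 and 35488 to 70853 CPM in the others. That list shares miR-200c and miR-141 with the mammary epithelium list, so it is not particular to intestine here. The 3 mammary epithelium miRNAs overlapped, at 94371 to 235917 CPM in the 4 and 133927 to 253518 CPM in the others. The 3 smooth muscle miRNAs, the stratified epithelium miRNAs and miR-122 overlapped too. The part of depth and of these cell types in the result was not tested.

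**Figure D4:**
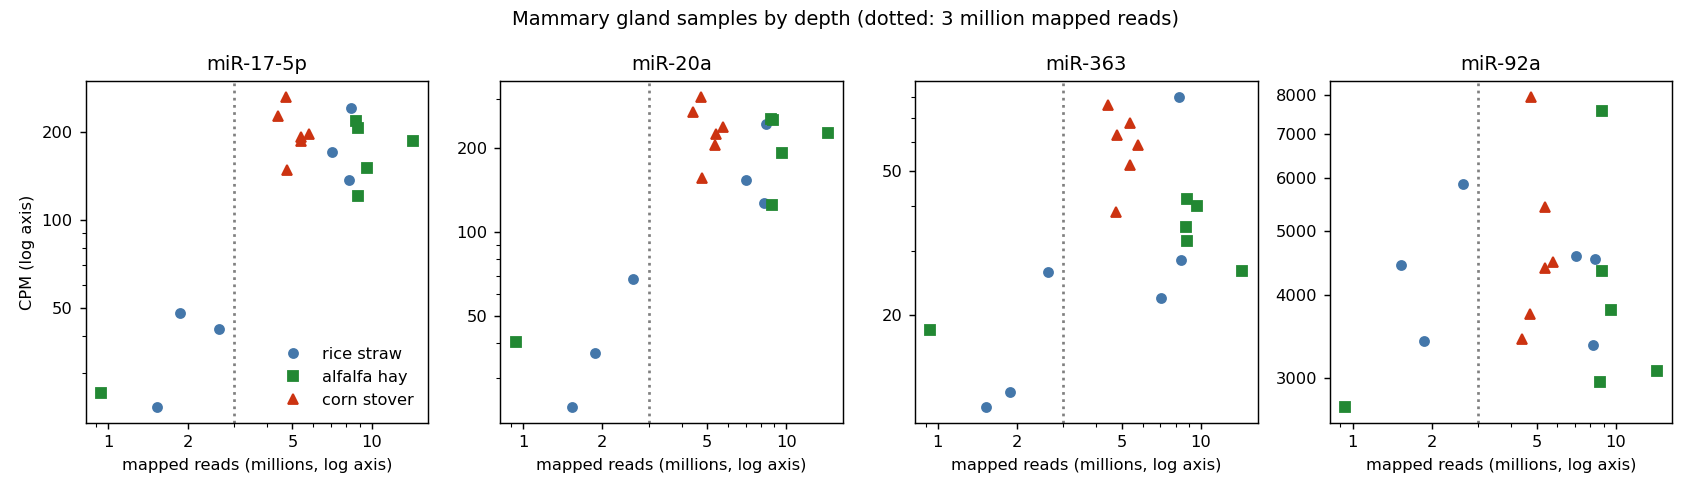
Each point is a mammary gland sample, with its mapped reads on the horizontal axis and the CPM of a member on the vertical axis, both logarithmic, and the dotted line marks 3000000 mapped reads. The 4 samples left of the line are lowest in miR-17-5p (22.9 to 48.0 CPM) and miR-20a but are spread over the range of miR-92a.

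Between tissues all 10 members differed, as did 100% of the 289 miRNAs listed in all 5. Of the 100 differences between pairs of tissues over the 10 members, 83 were called. Between duodenum and jejunum 2 of 10 members were called, where 11.4% of all miRNAs were. In the other pairs 6 to 10 members were called, where 70.2% to 84.8% of all miRNAs were. These counts include miR-92a, whose jejunum mean holds the corn stover samples that set the question. For miR-92a the pairs with jejunum are therefore a description. The levels are given in 3 patterns of like order.

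The first pattern, of miR-17-5p, miR-18a, miR-19a and miR-20a, was highest in rumen and lowest in liver and mammary gland. miR-17-5p averaged 520 ± 144 CPM in rumen, 376 ± 66 CPM in duodenum and 320 ± 57 CPM in jejunum, and was lower in mammary gland at 154.5 ± 75.2 CPM and in liver at 138 ± 25 CPM (SD, n = 18 each). Its steps from duodenum to jejunum (adjusted p = 0.47) and from liver to mammary gland (adjusted p = 0.59) missed the threshold, and that from rumen to duodenum (log2 difference 0.43, adjusted p = 0.021) was not called under TMM scaling (adjusted p = 0.25). The mammary gland mean of miR-17-5p joins the 4 samples under 3000000 mapped reads (22.9 to 48.0 CPM) to 14 samples at 121 to 264 CPM. Of the 4 members in this pattern, miR-18a differed most between rumen (105 ± 41 CPM) and liver (14.7 ± 3.9), by a log2 difference of 2.68. miR-93 and miR-25 were also highest in rumen, at 2398 ± 458 and 5016 ± 602 CPM, against 728 ± 99 and 2099 ± 200 in liver. miR-19b was highest in rumen (1620 ± 690 CPM) and lowest in liver (558 ± 90) by CPM, though level with jejunum under upper-quartile scaling (log2 difference -0.0440), while its levels in duodenum, jejunum and mammary gland did not differ by the test.

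miR-92a stood alone in the second pattern. It averaged 15199 ± 2954 CPM in liver, 12657 ± 3933 in rumen, 6796 ± 3826 in jejunum, 4451 ± 1465 in mammary gland and 4242 ± 794 in duodenum. Over all diets, liver exceeded rumen by a log2 difference of 0.33 (adjusted p = 0.0068). This order was not the same on every diet. Liver averaged 17054 CPM and rumen 14460 CPM on rice straw, against 14541 and 9083 CPM on alfalfa hay. The corn stover means were 14003 CPM in liver and 14428 CPM in rumen, and their samples overlapped. Mammary gland and duodenum did not differ by the test (adjusted p = 0.82). The jejunum mean joins corn stover samples at 10300 CPM and above to others of at most 5327 CPM, so its difference from duodenum (log2 difference 0.51) rests on the diet that set the question. In liver, where miR-17-5p, miR-18a and miR-19b were low, miR-92a was 63.5 to 171 times miR-17-5p, against 7.43 to 15.7 times in duodenum.

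The third pattern, of miR-106a and miR-363, was low in rumen and liver. miR-363 averaged 40.5 ± 21.2 CPM in mammary gland, 26.9 ± 4.0 in jejunum, 21.4 ± 8.4 in duodenum, 5.36 ± 3.02 in rumen and 4.13 ± 1.44 in liver. Duodenum and jejunum (adjusted p = 0.13) and rumen and liver (adjusted p = 0.23) did not differ by the test. miR-106a averaged 12.03 ± 5.37 CPM in duodenum, 10.8 ± 7.1 in mammary gland, 5.65 ± 1.89 in jejunum, 2.28 ± 1.08 in rumen and 1.10 ± 0.55 in liver, where 1 sample had no read. Of the cluster that holds the second miR-92a gene, miR-106a and miR-363 were thus lowest in liver and rumen, where miR-92a was highest. This did not extend to miR-19b, which also has a gene in that cluster and was highest in rumen.

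**Figure D5:**
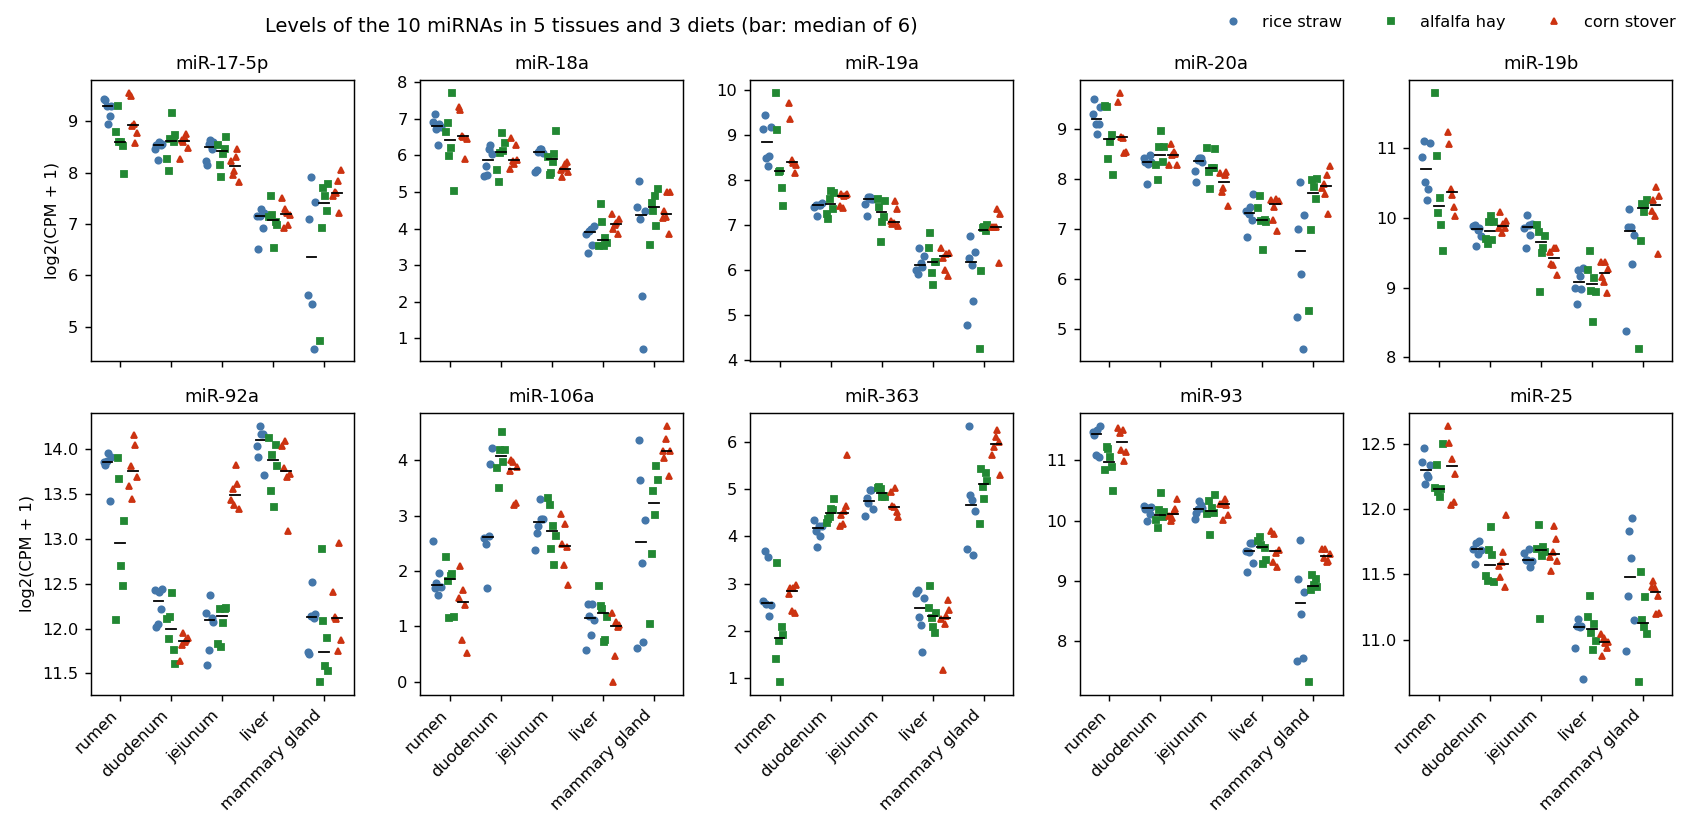
Each panel gives a member as log2(CPM + 1) by tissue, with points for samples, colours for diets and bars for the medians of 6. miR-17-5p, miR-18a, miR-19a, miR-20a, miR-19b, miR-93 and miR-25 are highest in rumen, miR-92a in liver and rumen, and miR-106a and miR-363 in mammary gland and gut.

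Within tissue and diet groups, the 5 members upstream of miR-92a varied together from sample to sample. Over the 90 samples as deviations from their 15 group means, Pearson's r was 0.37 to 0.97 for the 10 pairs of miR-17-5p, miR-18a, miR-19a, miR-20a and miR-19b (median 0.76). This was not particular to their transcript. With miRNAs of the separate miR-106b-25 cluster, the same 5 had r of 0.56 to 0.92 (miR-106b), 0.48 to 0.86 (miR-93) and -0.16 to 0.43 (miR-25). Pairs of miRNAs outside the members and relatives were not compared. For miR-92a with each of these 5, r was -0.17 to 0.10 (median 0.01). It was 0.42 with miR-25, 0.33 with miR-93, 0.47 with miR-92b and 0.38 with miR-17-3p. These are descriptions over samples that share their library depth and composition between the members.

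The miRNAs most like miR-92a over the 18 jejunum samples were miR-423-3p (Pearson's r 0.98), miR-21-3p (0.92), miR-345-3p (0.91), miR-423-5p (0.90) and miR-532 (0.89). The samples fell into corn stover and the other diets for miR-92a, so these values mostly describe that split. Of 336 miRNAs in this order miR-17-3p ranked 19, miR-92b 27, miR-25 78 and miR-93 85, and the remaining members ranked from 169 (miR-19a) to 261 (miR-20a). Over the 15 means of tissue and diet the most alike were miR-331 (0.91), miR-140 (0.90), miR-328 (0.89), miR-423-3p (0.88) and miR-193b (0.87). Of 288 miRNAs miR-93 ranked 72, the members of the first pattern from 113 to 156, and miR-363 (r -0.80) and miR-106a (r -0.84) ranked 282 and 287.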

How the data were processed

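Small RNA sequencing libraries of 90 samples were analysed, grouped by the tissue and diet in the labels. The authors filtered reads with CASAVA 1.8, used sRNAbench for trimming and for alignment to the bovine precursors of miRBase, allowing mismatches and several mappings per read, and deposited CPM per miRNA, the unit of all values used. The study's methods call the files raw counts, but the values are not whole and sum to just under the same total in every sample. The genome build is not given in the sources used here. Whole reads were recovered from the CPM steps (100% of values within 0.1 read), and 3 reads were worth 0.192 to 3.20 CPM, which covers counting error only.

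The members and lists were chosen with earlier results of these data known. Named miRNAs were the members, 8 relatives (5 listed) and the 5 miRNAs most correlated with miR-92a over jejunum samples and over group means. limma 3.58.1 (R 4.3.3, eBayes with an intensity trend) was fitted to log2(CPM + 1), which understates differences of low miRNAs, of all miRNAs listed in every tissue of a fit, with p-values adjusted by Benjamini-Hochberg (called under 0.05). Scripts were tested on simulated data. Alternatives were pseudocounts of 0.5 and 5 CPM, a mean of at least 10 CPM, upper-quartile and TMM scaling, no trend, edgeR 4.0.16 and DESeq2 1.42.0 on the recovered reads, a replicate block and left-out samples, the exclusion of 4 shallow mammary samples being chosen after the data were seen. Tables were handled with Python 3.11.15, pandas 2.3.3 and numpy 2.4.6, and figures drawn with matplotlib 3.10.9.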

Additional observations from a re-analysis of the deposited data

Results flagged for a closer look

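In 9 of 150 groups of 6 samples (10 members in 15 groups) the highest or lowest sample stood apart from the rest by a gap past Dixon's 95% limit, which chance gives in about 1 in 20 groups. Rice straw replicate 3 in duodenum was lowest in miR-19a (145 CPM, next 168) and in miR-20a (239 CPM, next 312). In rumen on rice straw, replicate 5 was lowest in miR-92a (11021 CPM, next 14473) and replicate 1 highest in miR-106a (4.83 CPM, next 2.91). miR-363 was highest in rumen alfalfa hay replicate 2 (9.81 CPM, next 3.24), duodenum corn stover replicate 6 (52.0 CPM, next 24.0) and mammary gland rice straw replicate 2 (80.0 CPM, next 28.3). In mammary gland on alfalfa hay, replicate 2 was highest in miR-92a (7581 CPM, next 4346), and replicate 1, which had the fewest mapped reads (937556), was lowest in miR-93 (159 CPM, next 459).

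The corn stover difference of miR-19b differed between jejunum and duodenum, by a log2 difference of -0.39 in the test of the difference itself (limma adjusted p = 0.045). The call was not kept under TMM scaling (-0.28, adjusted p = 0.070), edgeR, DESeq2 or without the intensity trend, nor without corn stover replicate 1, 2, 3, 4 or 6.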

How the results depend on the processing

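Among the partners of miR-92a in jejunum on corn stover, TMM scaling, edgeR and DESeq2 each called 2 of 9 higher (miR-25 and miR-93, against 0) and 0 lower (against 1, miR-20a), and the same scalings called 2, 2 and 1 of 9 (miR-25 in all) in the test of any diet difference in jejunum, where upper-quartile scaling called 1 (miR-19b). For corn stover against the other diets, calls over all 337 miRNAs were 110 under TMM (71 higher), against 119 (42 higher) in the main fit. The count tests on recovered reads called 109 (edgeR, 71 higher) and 117 (DESeq2, 67 higher). For the test of any diet difference in jejunum, the share of all miRNAs called was not taken under these settings. The difference of miR-363 changed sign to 0.042, 0.045 and 0.0078 under TMM, edgeR and DESeq2, and that of miR-93 ranged from -0.00165 (without alfalfa hay replicate 3) to 0.078 when single samples were left out. Leaving out each jejunum sample gave 0 to 3 partners called lower and 0 higher, where 81 to 143 of all 337 miRNAs were called in either direction. For the difference between jejunum and duodenum the count of 1 partner called lower became 3 under upper-quartile scaling and 0 without the intensity trend, was miR-20a in place of miR-19b under TMM, edgeR and DESeq2, and 0 to 2 when a corn stover replicate was left out. Of all 331 miRNAs, 71 were called in the main fit, 109 under upper-quartile scaling (40 higher) and 69 without the trend. TMM, edgeR and DESeq2 called 90, 96 and 97, and the fits without a corn stover replicate 58 to 77. In mammary gland the test of any diet difference called 1 member under DESeq2 (miR-25) and 3 (miR-106a, miR-20a and miR-363) without alfalfa hay replicate 1. Upper-quartile scaling turned the tissue differences of miR-19b, jejunum minus liver (0.50 to -0.0440), and of miR-25, liver minus mammary gland (-0.28 to 0.12). Over all miRNAs, calls between the diets in mammary gland went from 12 to 0 at a pseudocount of 0.5 CPM, 62 under DESeq2, 83 without alfalfa hay replicate 1 and 61 without the 4 shallow samples (chosen after seeing the data). Those in rumen went from 5 to 2 under TMM and 32 under DESeq2, and those of corn stover against rice straw in mammary gland from 82 to 41, 36 and 50 under upper-quartile scaling, TMM and edgeR. The causes were not tested. The test of any diet difference called 0 members in rumen, duodenum and liver under every alternative run. The 83 of 100 tissue differences ranged from 78 (upper-quartile scaling) to 88 (without the 4 shallow samples) where all 10 members were tested, and was 74 of 90 at a mean of at least 10 CPM. Depth limited miR-106a most, at 1.10 CPM in liver.

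The labels do not say that a replicate number marks a cow, and the data did not show it for every sample: between duodenum and jejunum the deviations of samples with the same diet and number correlated at 0.20 on average, and 11 of 18 samples correlated best with their own number. With the block on samples of the same diet and number, 2 partners were called lower in the difference between jejunum and duodenum (miR-19b and miR-20a), and calls over all miRNAs rose from 71 to 100. Within a tissue the block was the bare number, which joined samples of different diets and so of different cows. Deviations of samples with the same number correlated between diets at 0.07 on average in mammary gland and at -0.05 in jejunum. With the bare number as block, 1 member (miR-106a) was called between the diets in mammary gland, where calls over all miRNAs went from 12 to 54. The jejunum contrast with that block still called 1 partner lower and 0 higher.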
